A study of Homo sapiens with 6 samples.

Results

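The 3 TGF-beta ligands (TGFB1, TGFB2 and TGFB3), their 3 receptors (TGFBR1, TGFBR2 and TGFBR3) and 4 SMAD proteins (SMAD2, SMAD3, SMAD4 and SMAD7) were followed in PC-3 tumors of mice given an extract of Wedelia chinensis (WCE) or vehicle. These 10 genes were taken by symbol from the 24000 gene entries listed, and each was found in 1 entry. PC-3 is an established line of human prostate cancer cells that grows without androgens, and the tumors were grown in nude mice, which lack T cells but keep other host cells. All 6 samples are labelled as tumors of the same cell line, 3 (Vehicle 1 to 3) under vehicle and 3 (WCE 1 to 3) under the herbal extract. The labels of both groups give a treatment of 10 weeks. The labels give no dose, no age of the mice and no genotype beyond nude mice, and nothing in them says that more than 1 preparation of cells was injected. Each RNA library came from bulk tumor, so fewer cells of a type and less RNA per cell cannot be told apart.

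TGF-beta ligands are secreted in a latent form, held by their propeptide and by latent TGF-beta binding proteins until they are freed. The freed ligand binds TGFBR2, a kinase that phosphorylates TGFBR1, and TGFBR1 phosphorylates SMAD2 and SMAD3, which enter the nucleus with SMAD4. In prostate epithelium the pathway is known for restraining growth, and in advanced carcinomas for invasion and for changes of the matrix.

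The ligands TGFB2 and TGFB3 had the largest log2 differences between the groups among the 9 genes tested, in opposite directions. TGFB2 averaged 24.2 FPKM ± 2.34 (SD, n = 3) in vehicle tumors and 15.4 ± 6.46 in WCE tumors, where FPKM counts fragments for each kilobase of a transcript relative to all mapped fragments. TGFB3 averaged 8.92 FPKM ± 1.92 in vehicle tumors and 12.4 ± 1.42 in WCE tumors. TGFB1, the receptors and the SMADs lay closer together, and none of the 9 genes that could be tested passed a threshold of 0.05 once p-values were adjusted over all entries.

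The upstream sequences of TGFB2 and TGFB3 are shown because these ligands differed in opposite directions between the groups. They are the 250 bases before a RefSeq start on GRCh38.p14, written in the direction of the gene. Capitals mark the core of the cyclic AMP response element (ACGTCA or TGACGT), the E-box (CACGTG) and the SMAD box (CAGAC or GTCTG), searched on both strands. TGFB2 has 1 start in that table, at chr1:218345086-218345335 on the plus strand, and TGFB3 has its starts at chr14:75981996-75982245 and chr14:75983012-75983261 on the minus strand.
TGFB2: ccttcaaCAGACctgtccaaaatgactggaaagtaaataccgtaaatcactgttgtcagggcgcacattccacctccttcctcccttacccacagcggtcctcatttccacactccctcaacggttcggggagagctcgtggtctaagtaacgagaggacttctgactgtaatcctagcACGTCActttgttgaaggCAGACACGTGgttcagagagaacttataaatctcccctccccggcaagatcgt
TGFB3, first window: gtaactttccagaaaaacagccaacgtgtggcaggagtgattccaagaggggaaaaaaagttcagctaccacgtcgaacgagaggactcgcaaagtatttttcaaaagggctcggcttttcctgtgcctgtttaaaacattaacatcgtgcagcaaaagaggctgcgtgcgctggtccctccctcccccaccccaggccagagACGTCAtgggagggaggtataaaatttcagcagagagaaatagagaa
TGFB3, other window: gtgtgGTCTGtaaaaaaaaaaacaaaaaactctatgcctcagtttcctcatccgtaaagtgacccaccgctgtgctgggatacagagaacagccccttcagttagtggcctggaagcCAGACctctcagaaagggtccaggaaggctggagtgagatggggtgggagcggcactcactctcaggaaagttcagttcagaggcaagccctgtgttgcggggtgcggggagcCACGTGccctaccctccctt
The cyclic AMP response element core began 71 bases before the start of TGFB2 and 47 bases before one start of TGFB3, and among the 10 genes no other held it. That core was in 2 of the 26 windows of the 10 genes, against 7.1% of 35116 upstream windows of the same length over all genes. The E-box began 49 bases before the start of TGFB2 and 20 bases before the other start of TGFB3, and it was also in a window of SMAD3. It was thus in 3 of the 26 windows, against 6.34% of all windows. SMAD boxes began 243 and 53 bases before the start of TGFB2, the latter sharing 1 base with the E-box, and 245 and 133 bases before the other start of TGFB3. A motif of 5 letters is common, and the SMAD box was in 10 of the 26 windows, against 38% of all windows. These 10 windows belonged to 5 of the 10 genes. A match to the NFKB consensus was in 4 of the 26 windows, all of TGFBR1 or SMAD3 and none of TGFB2 or TGFB3, against 5.21% of all windows. These matches describe letters in a window and no factor was measured at them. The entries of TGFB2 and TGFB3 each list 1 start, and the windows were not matched to those starts.

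Before the groups are compared, a pair of libraries needs to be set apart. Vehicle 3 and WCE 1 were nearly identical, with a median absolute log2 difference of 0.0278 over 1915 entries of at least 50 FPKM on average, whereas the 14 remaining pairs differed by 0.0964 to 0.249. Among the 10 genes their log2 difference was at most 0.113, for TGFBR1. They carry opposite treatments, so all 6 tumors were compared first and the counts and most differences are also given without this pair, which was decided on once their values were known. From the steps of low values, the depth of the other tumors relative to Vehicle 3 ranged from 25.0% in WCE 1 to 85.2% in WCE 2, and absolute depth is unknown. Nothing states that the 3 tumors of a group were prepared independently, so p-values measure only the spread between them. The 4 epithelial markers EPCAM, KRT8, KRT18 and CDH1 summed to between 755 and 887 FPKM in vehicle tumors and between 703 and 754 in WCE tumors, and each was at least 35.9 FPKM in every tumor. EPCAM averaged 247 FPKM ± 60.2 in vehicle and 147 ± 29.6 in WCE tumors (log2 difference -0.73, unadjusted p 0.00889 and adjusted p 0.623 by limma; -1.08 without Vehicle 3 and WCE 1), and CDH1 averaged 59.3 ± 1.90 and 43.5 ± 11.3 (log2 difference -0.47, unadjusted p 0.0253; -0.68 without the pair). Both were lower in all WCE tumors than in all vehicle tumors, but the gap was that between the nearly identical libraries. EPCAM stood at 185 FPKM in Vehicle 3 and 180 in WCE 1, and CDH1 at 57.8 and 56.5. Groups of 3 did not overlap for 12.8% of all entries tested. They overlapped for the keratins KRT8 and KRT18 (log2 differences 0.05 and 0.10). Of the luminal prostate markers, TMPRSS2 stood at 18.1 FPKM ± 7.04 in vehicle and 24.9 ± 1.81 in WCE tumors (log2 difference 0.52, unadjusted p 0.0986 by limma). Its groups did not overlap, again only by the gap between Vehicle 3 (22.3 FPKM) and WCE 1 (22.9 FPKM). KLK3, also on that list, was at 0 in all 6 tumors. Of 5 endothelial markers 4 were under 0.5 FPKM in every tumor, and the list summed to between 0.985 and 3.15 FPKM in vehicle tumors and 2.19 and 2.80 in WCE tumors. The 5 fibroblast markers, almost all COL1A1 and COL3A1, summed to between 39.0 and 55.8 FPKM in vehicle tumors and between 12.4 and 55.3 in WCE tumors, with WCE 2 the lowest. COL1A2, DCN and PDGFRB were each at most 0.628 FPKM in every tumor. The 5 myeloid markers, almost all CD68, summed to between 25.6 and 41.2 FPKM in vehicle tumors and between 40.2 and 44.4 in WCE tumors. The groups overlapped for CD68, and PTPRC, CD14, CSF1R and ITGAM were each at most 0.666 FPKM in every tumor. This sum is therefore in effect the level of a single gene. The part of these markers and cell types in the differences described here was not tested.

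In vehicle tumors the receptor TGFBR2 and the ligand TGFB1 had the highest levels per length, with means of 39.8 and 36.0 FPKM. SMAD3 (25.8 FPKM) and TGFB2 (24.2 FPKM) came next, followed by TGFB3, SMAD2, SMAD4 and TGFBR1 between 8.92 and 6.33 FPKM, SMAD7 at 2.21 FPKM and TGFBR3 at 0.325 FPKM. Ranges of neighbours in this order overlapped for TGFBR2 and TGFB1, for SMAD3 and TGFB2, and along the series from TGFB3 to TGFBR1, so those orders are not beyond the spread. The order of the means was the same in WCE tumors, but other neighbours overlapped. There TGFB1 overlapped SMAD3, TGFB2 overlapped TGFB3 and no longer SMAD3, and TGFB3 no longer overlapped SMAD2.

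**Figure D1:**
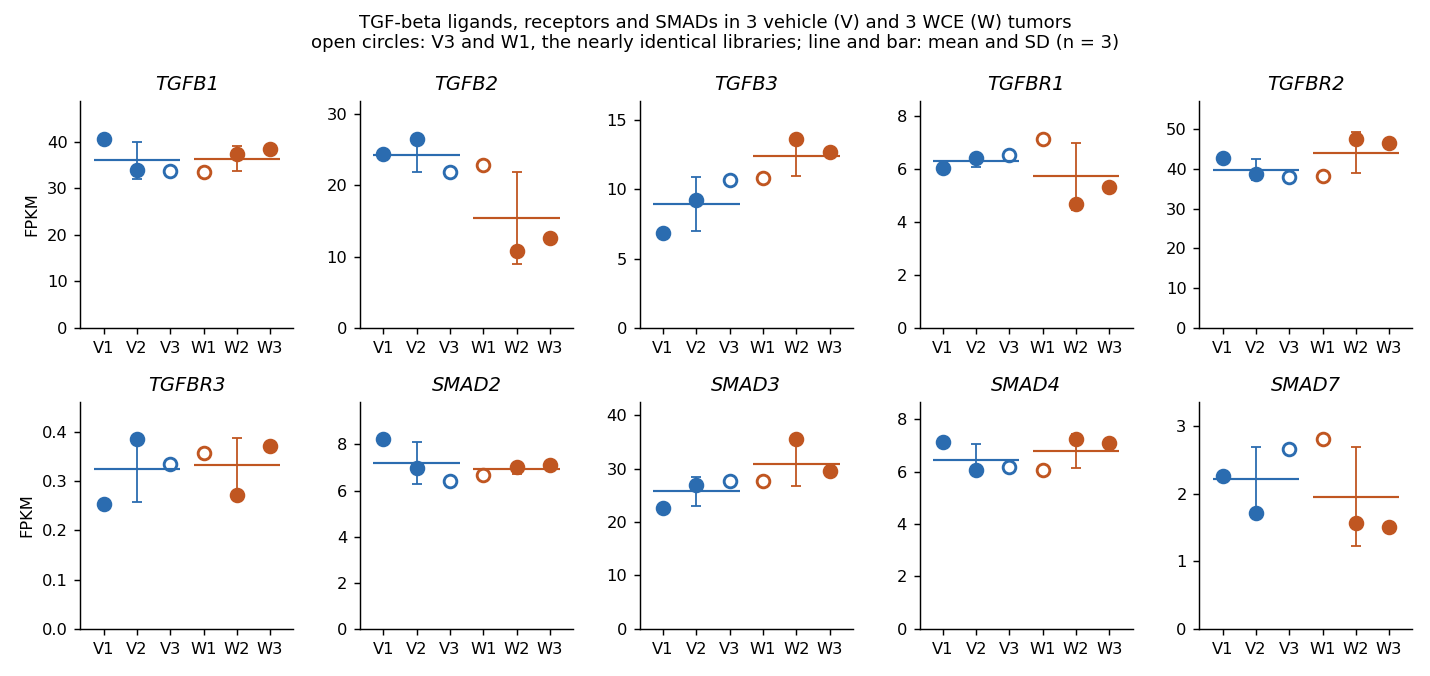
FPKM of the 10 genes in each of 3 vehicle (V1 to V3, blue) and 3 WCE (W1 to W3, orange) tumors, each panel with its own axis from 0; lines and bars are the mean and SD, and open circles mark V3 and W1, the nearly identical libraries. TGFB2 stood at 10.8 and 12.6 FPKM in W2 and W3 and between 21.8 and 26.5 in the other 4 tumors.

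TGFB2, a ligand with low affinity for TGFBR2 alone, stood at 24.3 FPKM in Vehicle 1, 26.5 in Vehicle 2, 21.8 in Vehicle 3, 22.7 in WCE 1, 10.8 in WCE 2 and 12.6 in WCE 3. WCE 2 and WCE 3 were the lowest tumors, whereas WCE 1 lay among the vehicle tumors, so the groups overlapped. On the log2(FPKM + 1) scale the difference was -0.69 (SE 0.25, 95% interval -1.26 to -0.11) by limma, with an unadjusted p of 0.0247 and an adjusted p of 0.623. With Vehicle 3 and WCE 1 left out the log2 difference was -1.06 (SE 0.13, interval -1.38 to -0.74), a ratio of mean FPKM of 0.459 against 0.635 over all 6 tumors, with an unadjusted p of 0.000314 and an adjusted p of 0.171. The unadjusted p did not pass 0.05 when Vehicle 1, Vehicle 2, WCE 2 or WCE 3 was left out alone, with values of 0.0611, 0.0811, 0.0799 and 0.0847 and log2 differences between -0.68 and -0.49. The entry lies at 1:218517538-218617961 (hg19 among the builds of the submitters' notes) and shares this locus with LOC728463, so reads of the overlapping transcripts may not be separable.

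TGFB3, the ligand with roles in palate fusion and in mesenchyme, stood at 6.86 FPKM in Vehicle 1, 9.25 in Vehicle 2, 10.7 in Vehicle 3, 10.8 in WCE 1, 13.6 in WCE 2 and 12.7 in WCE 3. All WCE tumors lay above all vehicle tumors, but the gap was that between the nearly identical libraries. The log2 difference was 0.45 (SE 0.16, interval 0.07 to 0.83; unadjusted p 0.0271 and adjusted p 0.623 by limma), and the ratio of the means was 1.39. Without Vehicle 3 and WCE 1 it was 0.66 with an unadjusted p of 0.00937 and an adjusted p of 0.191. Leaving out Vehicle 1 alone brought it to 0.29 (unadjusted p 0.0696), and leaving out Vehicle 2, WCE 2 or WCE 3 alone gave unadjusted p-values of 0.0505, 0.0876 and 0.0757. The entry lies at 14:76424442-76448092.

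TGFB1, the most abundant of the ligands, stood at 40.6 FPKM in Vehicle 1, 33.8 in Vehicle 2, 33.7 in Vehicle 3, 33.4 in WCE 1, 37.3 in WCE 2 and 38.4 in WCE 3. Vehicle 1 was the highest tumor and WCE 1 the lowest, and the groups overlapped. The log2 difference was 0.02 (SE 0.11, interval -0.24 to 0.28; adjusted p 0.970 by limma), and its sign turned when single tumors were left out. The entry lies at 19:41836812-41859831.

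The make-up of the ligands followed from these levels. TGFB2 made up 33.9%, 38.1% and 33.0% of the summed ligand FPKM in Vehicle 1 to 3, and 34.0%, 17.5% and 19.7% in WCE 1 to 3. The mean share was 35.0% ± 2.72 in vehicle and 23.7% ± 8.95 in WCE tumors, and the difference of -11.3 percentage points had an exact permutation p of 0.3 (two-sided, smallest possible 0.1; 0.4 adjusted over 3 such ratios). Without Vehicle 3 and WCE 1 it was -17.4 percentage points, a comparison of 2 and 2 tumors in which no p below 0.333 can be had. TGFB3 made up 9.55%, 13.3% and 16.1% of ligand FPKM in Vehicle 1 to 3 and 16.2%, 22.1% and 20.0% in WCE 1 to 3. The groups did not overlap, but Vehicle 3 and WCE 1 again stood side by side, and the exact permutation p of 0.1 is the smallest possible. The mean share differed by 6.41 percentage points over all 6 tumors and by 9.58 without that pair. The summed ligand FPKM was 69.1 ± 2.86 in vehicle and 64.1 ± 2.64 in WCE tumors (n = 3, exact permutation p 0.2), a difference of -5.04 FPKM that was -7.98 FPKM without the pair.

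**Figure D2:**
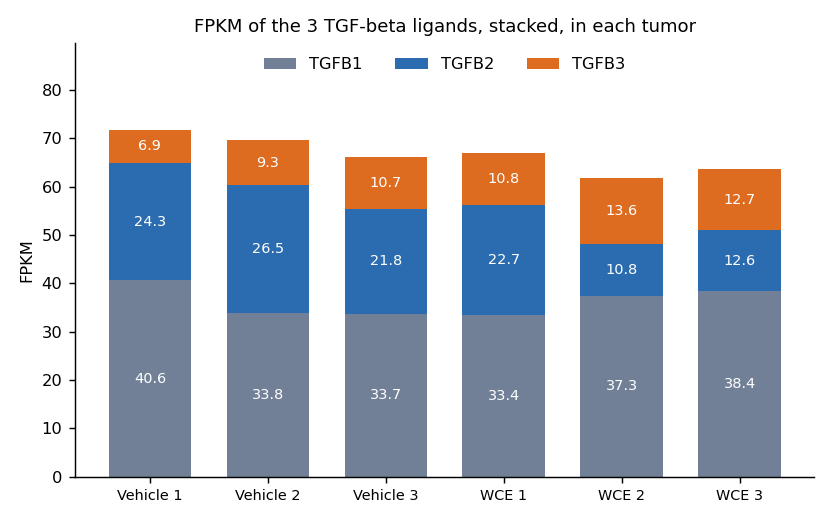
Stacked FPKM of TGFB1, TGFB2 and TGFB3 in each of the 6 tumors, with the value of each ligand in its segment. TGFB2 is the middle segment, which is 10.8 and 12.6 FPKM in WCE 2 and WCE 3 and 22.7 FPKM in WCE 1, while TGFB3 is largest in WCE 2 (13.6 FPKM).

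TGFBR2, the receptor that binds the ligand, stood at 42.8 FPKM in Vehicle 1, 38.7 in Vehicle 2, 37.8 in Vehicle 3, 38.3 in WCE 1, 47.5 in WCE 2 and 46.4 in WCE 3. WCE 2 and WCE 3 were the highest tumors and WCE 1 lay within the vehicle range. The log2 difference was 0.14 (SE 0.11, interval -0.12 to 0.41; unadjusted p 0.253 and adjusted p 0.689 by limma), and 0.20 without Vehicle 3 and WCE 1. Its entry lies at 3:30647994-30735633.

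TGFBR1, the receptor kinase that phosphorylates SMAD2 and SMAD3, stood at 6.04 FPKM in Vehicle 1, 6.42 in Vehicle 2, 6.54 in Vehicle 3, 7.16 in WCE 1, 4.69 in WCE 2 and 5.35 in WCE 3. The WCE tumors held both the highest and the lowest value. The log2 difference was -0.14 (SE 0.15, interval -0.48 to 0.20; unadjusted p 0.369), and without WCE 1 alone it was -0.29 with an unadjusted p of 0.0427. The entry lies at 9:101867412-101916473. The ratio of TGFBR2 to TGFBR1 averaged 6.30 ± 0.693 in vehicle and 8.05 ± 2.46 in WCE tumors (n = 3, exact permutation p 0.4), a difference of 1.76 over all 6 tumors and of 2.85 without Vehicle 3 and WCE 1.

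TGFBR3 (betaglycan), a co-receptor that presents TGFB2 to TGFBR2, was near the bottom of the scale in every tumor. Its values were 0.253, 0.385 and 0.336 FPKM in Vehicle 1 to 3 and 0.357, 0.271 and 0.372 FPKM in WCE 1 to 3, and the groups overlapped. With a mean of 0.329 FPKM it fell under the filter of 0.5 FPKM and was the gene left untested. The entry lies at 1:92145900-92371559.

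SMAD3, which binds DNA directly, stood at 22.7 FPKM in Vehicle 1, 26.9 in Vehicle 2, 27.66 in Vehicle 3, 27.61 in WCE 1, 35.5 in WCE 2 and 29.6 in WCE 3. WCE 2 and WCE 3 were the highest, and WCE 1 lay just under Vehicle 3. The log2 difference was 0.25 (SE 0.13, interval -0.05 to 0.55; unadjusted p 0.0881 and adjusted p 0.623 by limma). Without Vehicle 3 and WCE 1 it was 0.38 (unadjusted p 0.0477, adjusted p 0.269), and without WCE 1 alone it was 0.32 (unadjusted p 0.0497). The entry lies at 15:67358195-67487533.

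SMAD2, the other receptor-activated SMAD, stood at 8.21 FPKM in Vehicle 1, 6.99 in Vehicle 2, 6.43 in Vehicle 3, 6.67 in WCE 1, 7.03 in WCE 2 and 7.11 in WCE 3. All WCE tumors lay within the vehicle range, and the log2 difference was -0.04 (SE 0.11, interval -0.31 to 0.22). SMAD3 was the more abundant of the pair in every tumor, by a ratio of 3.64 ± 0.789 in vehicle and 4.45 ± 0.515 in WCE tumors (n = 3, exact permutation p 0.3), a difference of 0.808 over all 6 tumors and of 1.29 without Vehicle 3 and WCE 1. SMAD2 is listed at 18:45359466-45457515.

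SMAD4, the partner that both share, stood at 7.14 FPKM in Vehicle 1, 6.06 in Vehicle 2, 6.17 in Vehicle 3, 6.06 in WCE 1, 7.22 in WCE 2 and 7.07 in WCE 3. The WCE range enclosed the vehicle range, with a log2 difference of 0.06 (interval -0.20 to 0.33). SMAD7, an inhibitory SMAD that the pathway itself induces, stood at 2.26 FPKM in Vehicle 1, 1.71 in Vehicle 2, 2.66 in Vehicle 3, 2.80 in WCE 1, 1.57 in WCE 2 and 1.503 in WCE 3. The WCE tumors again held its highest and its lowest values, and the log2 difference was -0.14 (SE 0.20, interval -0.60 to 0.33; unadjusted p 0.518). SMAD4 is listed at 18:48556583-48611411 and SMAD7 at 18:46446223-46477081.

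**Figure D3:**
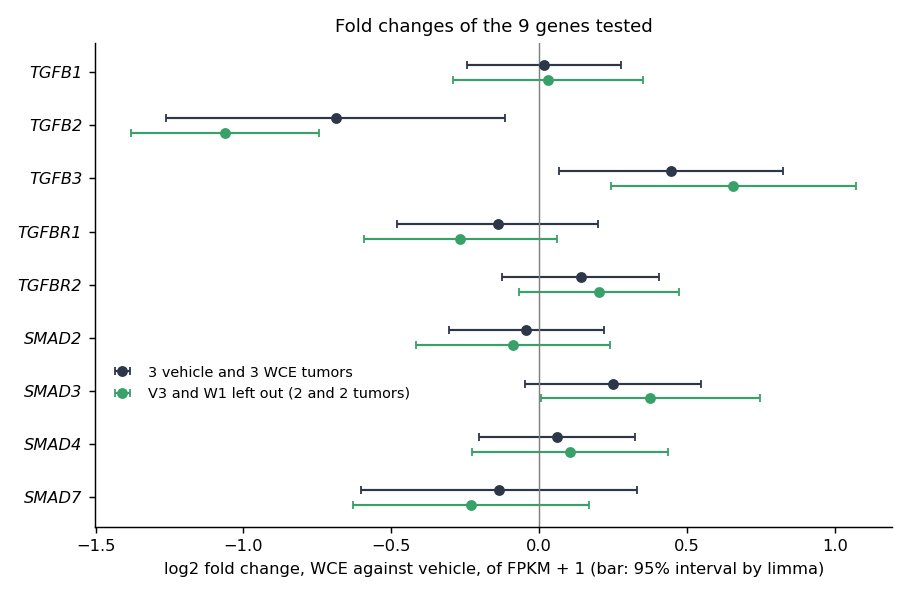
Log2 fold change of FPKM + 1, WCE against vehicle, for the 9 genes tested by limma, with 95% intervals, over all 6 tumors (dark) and with V3 and W1, the nearly identical libraries, left out (green). Intervals clear of 0 belong to TGFB2 and TGFB3 in both comparisons and to SMAD3 in the smaller one.

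Counted together, 2 of the 9 tested genes (TGFB2 and TGFB3) had an unadjusted p under 0.05, against 7.1% of all 13287 tested entries. TGFB3 was the 1 gene in the higher direction, where the background was 3.78%, and TGFB2 the 1 in the lower direction, where it was 3.33%. No gene of the 9 passed the adjusted threshold, which 0.00753% of entries passed. The groups of 3 did not overlap for 1 of the 9, TGFB3, against 12.8% of entries. With Vehicle 3 and WCE 1 left out, 3 of the 9 (TGFB2, TGFB3 and SMAD3) had an unadjusted p under 0.05 against a background of 18.4%, and 0 passed the adjusted threshold against 0.0376%. The remaining groups of 2 did not overlap for 6 of the 9 genes, a share to be read against 53.5% of all entries. The median log2 difference of the 9 was 0.02 over all 6 tumors, against -0.0063 over all entries, and their median absolute difference was 0.14 against 0.126. Without Vehicle 1, Vehicle 2, WCE 2 or WCE 3 alone, 0 of the 9 had an unadjusted p under 0.05, where 219 to 423 of the 13287 entries did. Without WCE 1 alone 4 of the 9 did (TGFB2, TGFB3, SMAD3 and TGFBR1), as did 2033 of the 13287 entries.

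Other genes of the pathway were followed in 3 lists, of which 41 of 48 genes were tested in an entry under their own symbol alone and counted. TGIF2 and FKBP1A, whose entries carry several symbols, were left out of the counts (unadjusted p 0.921 and 0.450 by limma). Of these 41, 3 (7.32%, against 7.1% of all entries) had an unadjusted p under 0.05, 2 higher and 1 lower in WCE tumors, and 0 passed the adjusted threshold. With Vehicle 3 and WCE 1 left out, 15 of the 41 (36.6%, against 18.4% of all entries) had an unadjusted p under 0.05, 5 higher and 10 lower. The medians of their log2 differences were -0.02 and -0.05 in these comparisons.

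Genes listed under extracellular storage and activation, a list that also holds ENG and the ligand-binding ASPN, had a median absolute log2 difference of 0.33. It was 0.114 for the intracellular regulators, 0.166 for the target genes and 0.126 over all entries. Of the 11 tested, 2 had an unadjusted p under 0.05 (18.2%, against 7.1% of all entries). Both were latent TGF-beta binding proteins. LTBP4 stood at 5.01, 6.59 and 7.01 FPKM in Vehicle 1 to 3 and at 6.81, 9.28 and 10.1 FPKM in WCE 1 to 3, a log2 difference of 0.43 (SE 0.17, unadjusted p 0.0374). LTBP3, whose locus is not its alone, stood at 9.60, 10.95 and 12.4 FPKM in Vehicle 1 to 3 and at 12.0, 15.0 and 15.3 FPKM in WCE 1 to 3, a log2 difference of 0.33 (unadjusted p 0.0403). In both genes WCE 2 and WCE 3 were the highest tumors and WCE 1 lay within the vehicle range. THBS1, a secreted thrombospondin known to free latent TGF-beta, stood at 178, 218 and 229 FPKM in Vehicle 1 to 3 and at 232, 79.8 and 89.5 FPKM in WCE 1 to 3. Its log2 difference was -0.80 (unadjusted p 0.0644) over all tumors and -1.21 (unadjusted p 0.000313) without Vehicle 3 and WCE 1. ASPN, a small matrix proteoglycan that binds TGF-beta, had at most 1.54 FPKM in any tumor and a log2 difference of -0.34 (unadjusted p 0.0930), from a locus that several other genes share. Without Vehicle 3 and WCE 1, 6 of the 11 genes had an unadjusted p under 0.05 (54.5%, against 18.4% of all entries), 3 higher and 3 lower. The 3 higher were LTBP4, LTBP3 and ENG, with log2 differences of 0.66, 0.52 and 0.65.

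Among the intracellular regulators 1 of the 14 counted had an unadjusted p under 0.05 (7.14%, against 7.1% of all entries). SKIL, a repressor of SMAD complexes that TGF-beta also induces, stood at 15.5, 16.0 and 14.6 FPKM in Vehicle 1 to 3 and at 14.3, 10.4 and 9.07 FPKM in WCE 1 to 3. Its groups did not overlap, but the gap was that between the nearly identical libraries Vehicle 3 and WCE 1. The log2 difference was -0.44 (SE 0.16, unadjusted p 0.0251 and adjusted p 0.623 by limma). SMURF1, a ubiquitin ligase for the receptors and SMADs, had a log2 difference of 0.24 (unadjusted p 0.0785 by limma). Its groups did not overlap, again only by the gap between Vehicle 3 (19.4 FPKM) and WCE 1 (19.5 FPKM). Groups of 3 did not overlap for 3 of the 14 genes, against 12.8% of all entries. PPM1A, a phosphatase of SMAD2 and SMAD3, had a log2 difference of -0.14 (unadjusted p 0.172 by limma). PMEPA1, an inhibitor that competes for SMAD2 and SMAD3, stood at 86.7, 91.7 and 114 FPKM in Vehicle 1 to 3 and at 111, 66.7 and 66.6 FPKM in WCE 1 to 3, with an unadjusted p of 0.215. When Vehicle 3 and WCE 1 were left out, 3 of the 14 had an unadjusted p under 0.05 (21.4%, against 18.4% of all entries), which were SKIL at a log2 difference of -0.65, PMEPA1 at -0.42 and SMURF1 at 0.35.

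Of 16 tested target genes of the pathway, 0 had an unadjusted p under 0.05 over all 6 tumors by limma, against 7.1% of all entries. TAGLN, an actin-binding protein of contractile cells, stood at 10.9, 8.59 and 8.84 FPKM in Vehicle 1 to 3 and at 9.72, 4.91 and 5.01 FPKM in WCE 1 to 3 (log2 difference -0.52, unadjusted p 0.0602, locus shared with SIDT2). PTHLH, the parathyroid hormone-like hormone, stood at 175, 172 and 221 FPKM in Vehicle 1 to 3 and at 228, 84.3 and 131 FPKM in WCE 1 to 3 (log2 difference -0.46, unadjusted p 0.19). In both genes WCE 2 and WCE 3 were the lowest tumors, and WCE 1 lay within or above the vehicle range. The cyclin-dependent kinase inhibitor CDKN1A had a log2 difference of -0.35 (unadjusted p 0.162) and CDKN2B, whose locus is shared with CDKN2B-AS1, one of 0.16 (unadjusted p 0.179). In the smaller comparison without Vehicle 3 and WCE 1, 6 of the 16 had an unadjusted p under 0.05 by limma (37.5%, against 18.4% of all entries). Of these, 1 was higher and 5 were lower in WCE tumors, the latter being TAGLN, TGFBI, PTHLH, SNAI2 and CDKN1A.

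**Figure D4:**
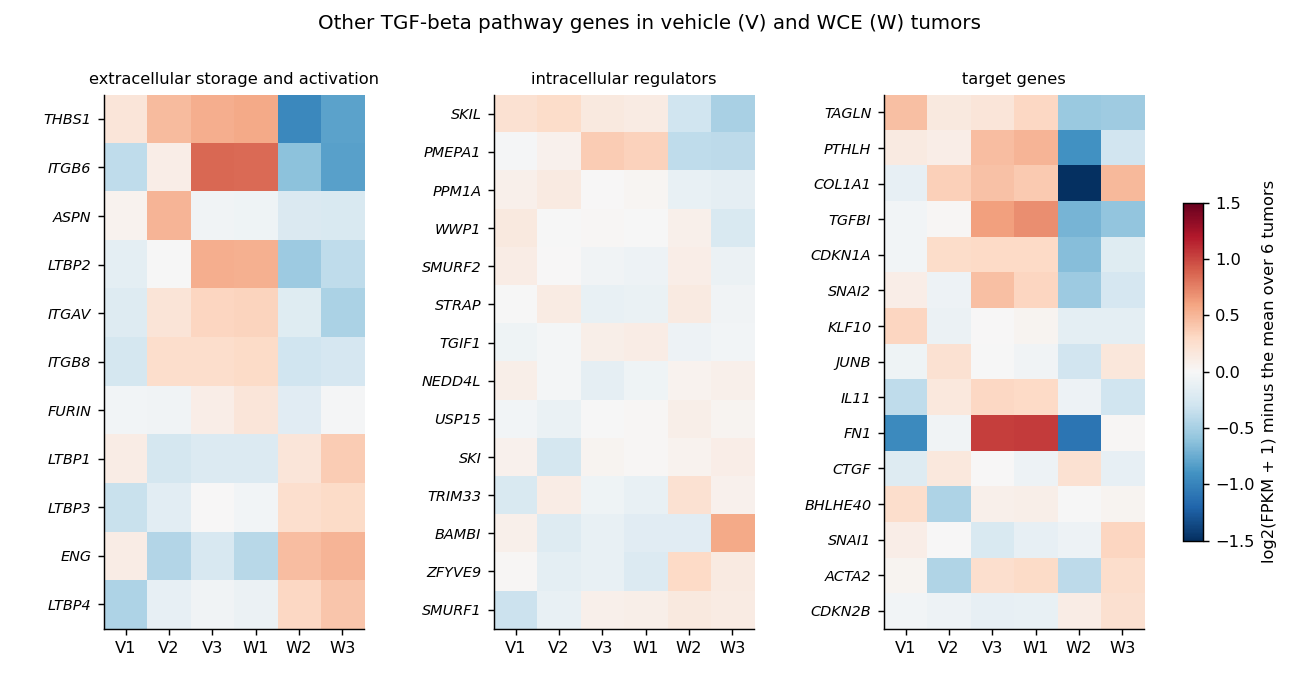
Level of other pathway genes in 3 vehicle (V) and 3 WCE (W) tumors, as log2(FPKM + 1) minus the mean of the gene over the 6 tumors, in 3 panels by role and ordered in each panel by the log2 difference between groups. The columns V3 and W1, the nearly identical libraries, look alike in every panel, and THBS1 and TAGLN, with the lowest log2 difference of their panels (-0.80 and -0.52), are lowest in W2 and W3.

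The entries whose pattern over the 6 tumors was most like that of TGFB2 were BMP4, GALNT3, NETO2, CDH3 and CD24. Likeness was the root mean square difference between profiles of log2(FPKM + 1), each centred on its mean, over 9239 entries of at least 5 FPKM on average. It was 0.0946 for BMP4, 0.0965 for GALNT3, 0.115 for NETO2, 0.119 for CDH3 and 0.120 for CD24, against a median of 0.485 over all entries compared and 0.469 for a flat profile. BMP4, a bone morphogenetic protein of the same ligand superfamily, stood at 8.41, 7.98 and 6.92 FPKM in Vehicle 1 to 3 and at 7.69, 3.43 and 4.47 FPKM in WCE 1 to 3. GALNT3, an enzyme that starts mucin-type glycosylation, stood at 22.7, 24.9 and 24.8 FPKM in Vehicle 1 to 3 and at 24.3, 10.7 and 12.5 FPKM in WCE 1 to 3. In all 5 entries WCE 2 and WCE 3 were the lowest tumors and WCE 1 stood near the vehicle tumors, which is the feature that likeness to TGFB2 selects.

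**Figure D5:**
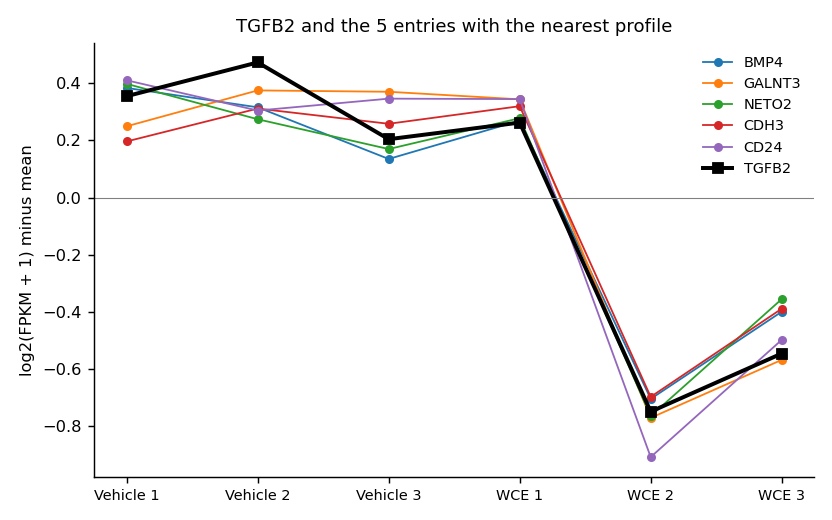
Profiles of TGFB2 (black squares) and of the 5 entries nearest to it, as log2(FPKM + 1) minus the mean of each entry, over the 6 tumors in the order of the labels. All 6 lines are above 0 in the vehicle tumors and WCE 1 and below 0 in WCE 2 and WCE 3, and root mean square differences from TGFB2 run from 0.0946 to 0.120.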

How the data were processed

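RNA-seq of 6 PC-3 tumors was analysed, with groups taken from the sample labels. The authors deposited FPKM values per gene entry in 1 table. The submitters' processing notes name TopHat2 2.0.13, Cufflinks, hg19 and mm10, with no roles, and the libraries were stranded mRNA. The annotation, any scaling between tumors and the treatment of mouse reads are not given in the sources used here. For oral treatment of PC-3 tumors the study states more than 1 dose and duration.

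Loci are as listed, counted from 1. Values were changed to log2(FPKM + 1), entries with a mean of at least 0.5 FPKM were kept, and the groups were tested against each other by limma 3.58.1 under R 4.3.3 (mean-variance trend, two-sided, Benjamini-Hochberg over 13287 entries). Ratios and shares were compared by an exact permutation test. The fit was tested on simulated data. The named genes are the 10 genes, the 4 of each pathway list with the lowest p and the 5 nearest to TGFB2. The target genes called without Vehicle 3 and WCE 1, ENG, and the markers EPCAM, CDH1 and TMPRSS2 were picked for their values. The genes and lists were chosen with earlier results of these data known. Alternatives were the pseudocount, filters, scaling, trend, moderation, weights, a replicate block and tumors left out. Upstream sequences came from RefSeq (GRCh38.p14), matched by symbol for 10 of 10 genes. Results of a few listed genes are not reported here, and the plot of pathway genes leaves out any of them.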

Additional observations from a re-analysis of the deposited data

How the results depend on the processing

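Over the 6 tumors 944 entries had an unadjusted p under 0.05 and 1 passed the adjusted threshold. An unmoderated test gave 593 and 0, with 0 of the 9 genes and 0 of the 41 pathway genes under 0.05. Weights for the tumors gave 3201, with 18 pathway genes under 0.05, the 9 genes at 3 (TGFB2, TGFB3 and TGFBR2, at 0.23) and SMAD2 turned to 0.012. Without Vehicle 3 and WCE 1, 2449 entries were under 0.05 and 5 passed the adjusted threshold, with 15 pathway genes and 3 of the 9. With each tumor left out in turn, 219 to 2033 entries were under 0.05 and 1 to 7 passed the adjusted threshold, while 0 to 4 of the 9 genes and 0 to 17 of the 41 were under 0.05. The log2 difference then ran from -0.029 to 0.10 for TGFB1 and from -0.11 to 0.042 for SMAD2, both across 0, from -0.99 to -0.49 for TGFB2 and from 0.29 to 0.57 for TGFB3. The difference in the TGFB2 share ran from -16.4 to -8.12 percentage points. The causes of these changes were not tested.

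The replicate block called TGFB2 and TGFB3 and 1049 entries at the unadjusted threshold and 1 at the adjusted one, with a lowest adjusted p of 0.6199 among the 9 genes by limma. Deviations of tumors with the same number correlated at -0.241, 0.160 and -0.0931, and those of Vehicle 3 and WCE 1 at 0.363. Deviations from the mean of 3 tumors are not independent, so these values cannot decide whether the numbers pair the tumors. The pseudocount, the filters, the scalings and the fit without a trend left TGFB2 and TGFB3 as the 2 genes under 0.05. Absolute depth is unknown, which limits what can be said of TGFBR3.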
